A study of Mus musculus with 22 samples.

Results

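The interferon-stimulated genes described here are 43 rows of a brain read count table of 56748 genes, chosen by symbol from a list of genes that interferon signalling is known to switch on. Members were chosen with earlier results of these data known. Shares of members set against shares of all genes are therefore descriptions, not independent tests of the set. Of the 43 members, 42 passed the filter on low counts that left 20026 genes for testing. Oas3 did not pass: it had 79 counts over all 22 libraries together and at most 11 in any of them.

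RNA-seq was made from the whole brain of male C57BL/6J mice in 6 groups, with 22 libraries in all. From 10 weeks of age mice had 1 intraperitoneal injection a day over 10 days of permethrin, an insecticide that acts on sodium channels, at 200 mg/kg together with pyridostigmine bromide, a cholinesterase inhibitor, at 0.7 mg/kg, as a model of Gulf War illness, or of vehicle. Once aged to 17.5 months they had cannabidiol (CBD), a cannabinoid that is not intoxicating, at 30 mg/kg each day for 28 days and on alternate days for 2 weeks, or its vehicle, and brains were taken 24 h after bacterial lipopolysaccharide (LPS) at 0.33 mg/kg or after phosphate-buffered saline (PBS). The unexposed groups, which had vehicle both times, were CtrlVeh (PBS, 3 libraries) and CtrlVehLPS (LPS, 3 libraries). The exposed groups that had CBD vehicle were GWVeh (PBS, 4 libraries) and GWVehLPS (LPS, 4 libraries), and the exposed groups that had CBD were GWCBD30 (PBS, 4 libraries) and GWCBD30LPS (LPS, 4 libraries). CBD was given to exposed mice only among the groups analysed here. The series is titled as a study of neuroimmune priming in aged exposed mice and of its change by CBD.

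Interferons are secreted proteins that bind receptors on the cell surface. The receptors activate Janus kinases, which phosphorylate STAT proteins. Complexes that hold STAT2 and IRF9 bind the interferon-stimulated response element (ISRE) of target promoters, and a second promoter motif of the pathway is the gamma-activated sequence (GAS). The products of the target genes detect foreign nucleic acid, block viral entry, translation and replication, tag proteins with ISG15, and shape peptides for antigen presentation. LPS is known to induce type I interferon through TLR4 and its adaptor TRIF (Ticam1), and in brain microglia, endothelium and astrocytes are known to express these genes.

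Promoter sequences are shown for the 7 members past the threshold in the LPS contrast averaged over the 3 arms described below, because the ISRE is the shared regulatory sequence of this gene class. Each is the RefSeq window of 300 bases (GRCm38.p6) from 250 bases before to 50 after the annotated start, written 5′ to 3′ along the gene. Capitals mark matches of the ISRE letters GAAANNGAAA on either strand, and overlapping matches run together.
Ifitm3 (chr7:141010695-141010994, minus strand): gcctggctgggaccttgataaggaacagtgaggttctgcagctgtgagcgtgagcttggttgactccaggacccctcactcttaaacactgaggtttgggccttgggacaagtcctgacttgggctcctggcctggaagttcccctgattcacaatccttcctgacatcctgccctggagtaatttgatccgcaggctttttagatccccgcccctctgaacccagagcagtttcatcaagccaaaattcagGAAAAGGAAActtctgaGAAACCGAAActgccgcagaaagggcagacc
Oas1a (chr5:120907476-120907775, minus strand): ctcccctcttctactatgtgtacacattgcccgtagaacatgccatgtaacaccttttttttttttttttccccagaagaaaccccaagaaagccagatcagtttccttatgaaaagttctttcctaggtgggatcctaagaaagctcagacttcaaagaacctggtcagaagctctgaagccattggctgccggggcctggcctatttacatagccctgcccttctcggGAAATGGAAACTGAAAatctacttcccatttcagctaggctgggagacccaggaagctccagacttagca
Ifit1 (chr19:34640639-34640938, plus strand): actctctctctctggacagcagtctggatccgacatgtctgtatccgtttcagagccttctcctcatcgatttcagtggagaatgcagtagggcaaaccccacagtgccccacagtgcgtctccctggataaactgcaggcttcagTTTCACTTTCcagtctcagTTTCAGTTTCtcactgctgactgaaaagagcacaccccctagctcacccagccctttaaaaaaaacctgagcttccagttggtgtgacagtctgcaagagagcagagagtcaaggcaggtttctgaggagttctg
Trim30a (chr7:104465144-104465443, minus strand): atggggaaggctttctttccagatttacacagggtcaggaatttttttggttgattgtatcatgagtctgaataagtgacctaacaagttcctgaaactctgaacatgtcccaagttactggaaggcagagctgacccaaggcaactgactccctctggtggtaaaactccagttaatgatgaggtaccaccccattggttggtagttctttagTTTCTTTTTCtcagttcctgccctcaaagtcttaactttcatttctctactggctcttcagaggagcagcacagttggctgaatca
Irf7 (chr7:141266375-141266674, minus strand): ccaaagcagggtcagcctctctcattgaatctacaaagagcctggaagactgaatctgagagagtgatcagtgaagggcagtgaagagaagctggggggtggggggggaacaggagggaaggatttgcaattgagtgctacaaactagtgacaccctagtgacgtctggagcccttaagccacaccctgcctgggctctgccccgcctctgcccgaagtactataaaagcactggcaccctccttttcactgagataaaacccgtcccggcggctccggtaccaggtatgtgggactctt
Oasl2 (chr5:114896684-114896983, plus strand): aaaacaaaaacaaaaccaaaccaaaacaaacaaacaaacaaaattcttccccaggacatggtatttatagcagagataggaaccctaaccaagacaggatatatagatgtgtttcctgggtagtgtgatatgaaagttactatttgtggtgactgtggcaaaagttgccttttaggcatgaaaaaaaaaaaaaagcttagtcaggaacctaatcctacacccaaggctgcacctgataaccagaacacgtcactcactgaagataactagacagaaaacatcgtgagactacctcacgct
Ifi44 (chr3:151749861-151750160, minus strand): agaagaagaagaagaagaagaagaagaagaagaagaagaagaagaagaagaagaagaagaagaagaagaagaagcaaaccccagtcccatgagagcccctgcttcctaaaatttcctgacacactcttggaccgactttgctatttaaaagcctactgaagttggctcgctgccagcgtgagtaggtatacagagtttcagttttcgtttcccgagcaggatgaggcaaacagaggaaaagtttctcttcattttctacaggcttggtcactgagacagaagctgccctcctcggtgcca

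In these windows the ISRE letters occurred in Ifitm3, Oas1a, Ifit1 and Trim30a, and not in Irf7, Oasl2 or Ifi44. Counted from the annotated start, the first bases of the matches were at -20 and -14 in Oas1a, -104 and -85 in Ifit1, -36 in Trim30a, and 2 and 19 in Ifitm3. A RefSeq window was found for 32 of the 43 members, and 18 of these 32 (56.2%) held a match. Of all 27025 genes with a window 3.99% held one, and of all 32851 single windows 3.44%. GAS letters (TTCNNNGAA, both strands) were in 8 of the 32 members (25%), in 9.55% of all genes and in 8.3% of all windows. Bst2, Eif2ak2, Ifitm3, Igtp and Oas1a held both motifs. A match is a description of the letters only, and the absence of one says nothing about the rest of the locus.

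**Figure D1:**
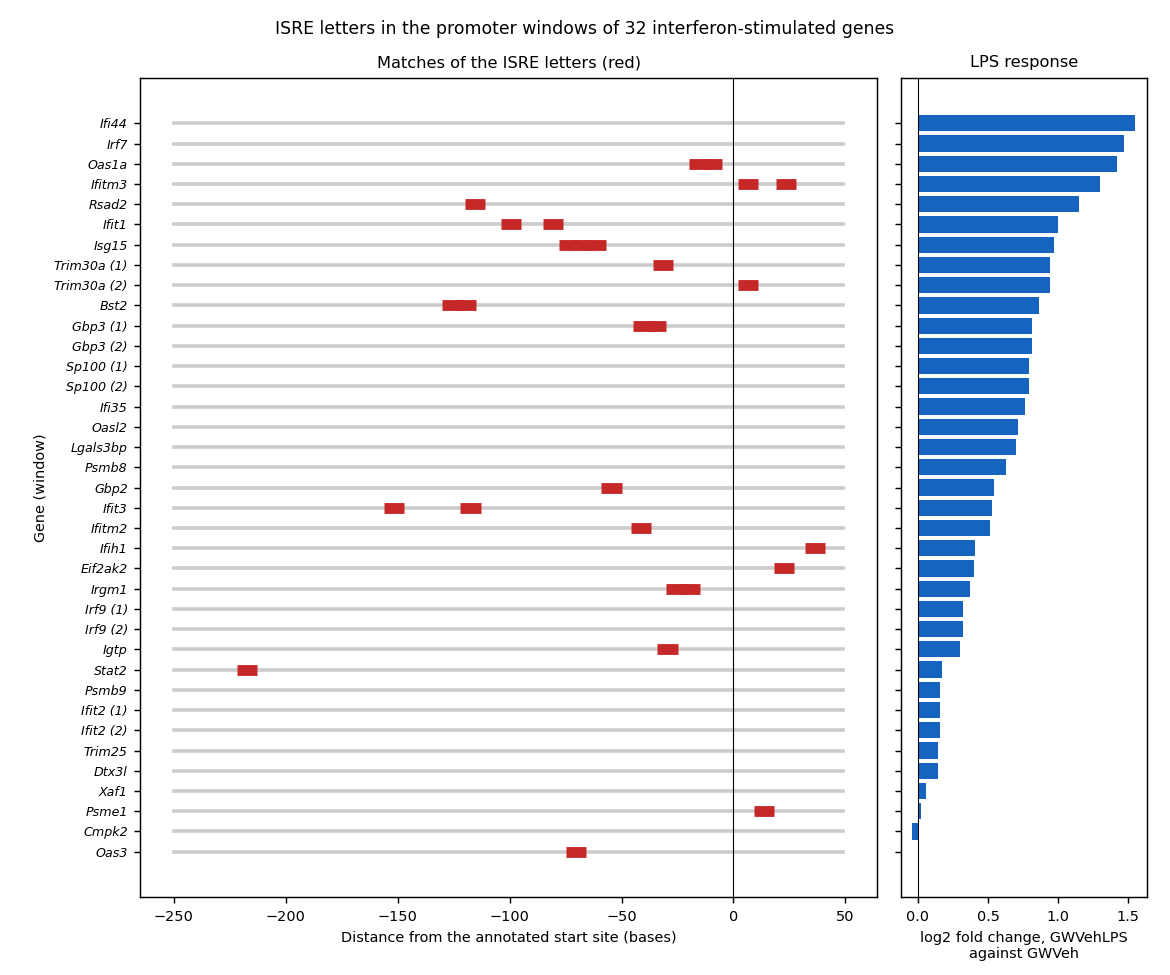
Matches of the ISRE letters (red) in the promoter windows of 32 members, by distance from the annotated start in bases (left), and the log2 fold change of GWVehLPS against GWVeh (right). Rows are ordered by that fold change, and Ifi44 and Irf7, near the top, have no match, while Psme1 has one and a fold change of 0.02.

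Levels are given in CPM, the count of a gene scaled to the TMM-scaled total of its library, and library totals ran from 17152595 to 31150515 counts. A count of 3 in a library, taken as the limit of detection, was 0.0975 to 0.176 CPM. Tests were made with edgeR across all 20026 genes, a gene was called at an adjusted p under 0.05, and changes are log2 fold changes ± SE. The titles number the libraries of a group as mice and say no more of how they were kept or prepared, so p-values measure only the spread between these libraries. Markers of neurons, oligodendrocytes, astrocytes and microglia were present in every library. CtrlVehLPS replicate 1 stood apart: its mean log2 level of 12 cerebellar genes was 2.88 against 6.65 to 7.41 in the others, and its pancreatic acinar genes summed to 390 CPM against 4.83 to 7.60. The olfactory bulb score was high in all 3 CtrlVehLPS libraries (2.93 to 3.91), against 1.56 to 1.63 in CtrlVeh, 1.70 to 1.89 in GWVeh and 1.5 to 3.16 in GWVehLPS, so the LPS contrast of controls and the exposure contrasts under LPS differ in it too. In CtrlVehLPS replicate 1 the members' mean deviation from their group was -0.24 (log2), with 33 of 42 below the group mean. For the contrasts that use that library, counts or medians of the members are also given without it. Apart from ranges over leave-outs, values of single members, roles and other lists, and counts of non-overlap, are given with it only. The largest such deviation of any library was 0.33, in GWCBD30 replicate 3, a PBS library, with 3 of 42 below the group mean. These are bulk values, in which fewer cells of a type and less RNA per cell cannot be told apart.

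At baseline the members covered a wide range. Per kilobase of exon, the CtrlVeh mean was highest for Ifi27 (21.9 ± 3.14 CPM per kb, SD, n = 3), Ifitm3 (10.5 ± 1.64) and Psme1 (9.83 ± 0.172). The SDs of Ifitm3 and Psme1 overlapped. The lowest members that passed the filter were Ifi44 (0.0721 ± 0.00613), Zbp1 (0.0894 ± 0.0203) and Mx1 (0.136 ± 0.0480). Summed over the members, levels were 272 to 319 CPM in CtrlVeh, 278 to 350 in CtrlVehLPS, 272 to 308 in GWVeh, 354 to 396 in GWVehLPS, 268 to 335 in GWCBD30 and 267 to 323 in GWCBD30LPS. The 4 GWVehLPS sums lay above those of every other library.

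**Figure D2:**
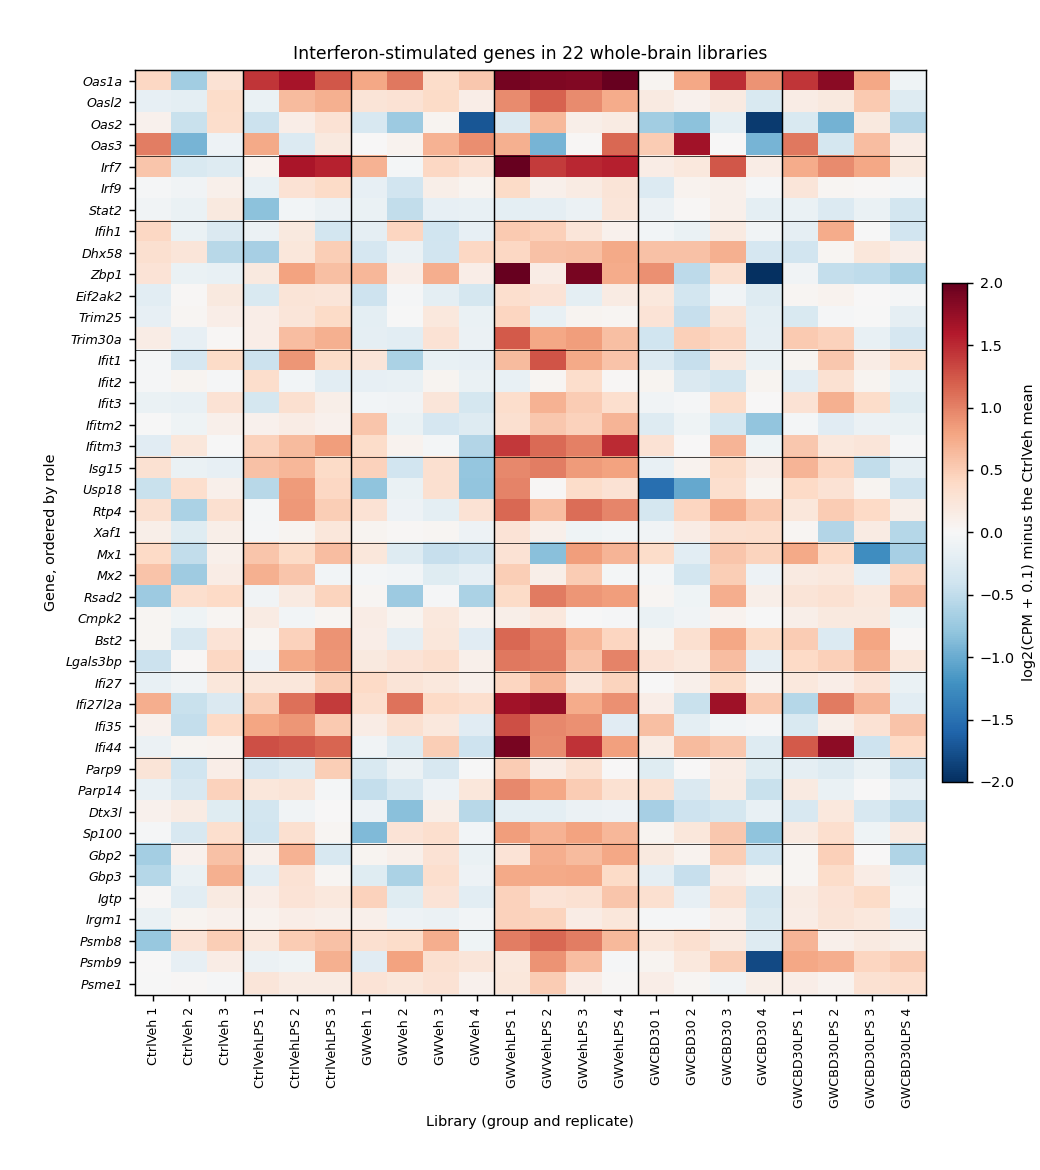
Heat map of the 43 members (rows, by role, with lines between roles) in 22 libraries (columns, by group). Colour is log2(CPM + 0.1) minus the mean of the 3 CtrlVeh libraries, limited to ±2. The GWVehLPS columns are red for most members, and CtrlVehLPS replicate 1 is paler than the other 2 libraries of its group.

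Of the LPS responses of the 3 arms, that of exposed vehicle mice was the one with members called. There 8 of 42 rose (Ifitm3, Irf7, Trim30a, Rsad2, Ifit1, Oasl2, Parp14 and Bst2), by 1.63-fold in Oasl2 to 2.78-fold in Irf7, and none fell. Over all genes 0.829% were called higher in this contrast. The members' median log2 fold change was 0.67, and 41 of 42 were positive, while the median of all genes was -0.00. In 19 of 42 members every GWVehLPS library lay above every GWVeh library, against 3.50% of all genes. How many members passed depended on single libraries: 1 of 42 (Ifitm3) without GWVeh replicate 2, 2 without GWVeh replicate 4, 3 without GWVehLPS replicate 1, 4 without GWVeh replicate 3 or without GWVehLPS replicate 2, 5 without GWVehLPS replicate 3, 6 without GWVeh replicate 1 (with Ifitm2 and Isg15 among them), 7 without GWVehLPS replicate 4, and 12 without CtrlVehLPS replicate 1, which shares the estimate of spread. The members' direction did not turn with these, with 39 to 41 of 42 positive. Over all genes 125 to 266 were called in these fits, in either direction, against 188 with all libraries.

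In control mice no member was called after LPS, against 0.414% of all genes called higher. There were 6 members with an unadjusted p under 0.05 (Oas1a, Ifitm3, Irf7, Ifi44, Ifi27 and Ifi35), against 12.2% of all genes, and DESeq2 called none. The median was 0.20, with 35 of 42 positive. Levels did not overlap in 7 members (Ifi35, Ifi44, Ifitm3, Isg15, Oas1a, Psme1 and Trim25), against 9.20% of all genes. Without CtrlVehLPS replicate 1 Irf7 was called, 13 of 42 members had an unadjusted p under 0.05 against 11.7% of all genes, and the median was 0.32. With olfactory bulb and cerebellar scores as terms of the fit Irf7 was called, 13 of 42 had such a p against 8.07% of all genes, and the median was 0.39.

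In exposed mice that had CBD no member was called either, against 0.00499% of all genes called higher, and DESeq2 called none. Xaf1 and Psmb9 had an unadjusted p under 0.05, fewer than the 8.22% of all genes would give. Psmb9 was higher after LPS, while Xaf1 was lower, at 4.76 to 6.38 CPM in GWCBD30 and 3.32 to 5.65 in GWCBD30LPS. The median was 0.12, with 30 of 42 positive, and in none of the 42 did every LPS library lie above every PBS library, against 3.39% of all genes. GWCBD30 replicate 3, with its high member levels, is 1 of those PBS libraries. Without it no member was called and 35 of 42 were positive. In that fit 4 had an unadjusted p under 0.05, against 8.08% of all genes. The 3 arms' LPS contrasts share no libraries with each other, but a call in 1 arm and not in another is not a difference between them, which the interactions given further on test.

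Averaged over the 3 arms, LPS raised 7 of 42 members (Ifitm3, Ifi44, Oas1a, Irf7, Ifit1, Oasl2 and Trim30a), against 2.49% of all genes called higher. None fell, the median was 0.32, and 40 of 42 were positive. The count was 4 without CtrlVeh replicate 2 and 4 without CtrlVehLPS replicate 2, and Ifitm3, Ifi44, Oas1a and Irf7 were called in both. Without CtrlVehLPS replicate 1 it was 10. Over all genes the calls in these fits were 449, 611 and 899 in the same order, against 705 with all libraries. Trim30a lost its call in 11 of 22 leave-outs, Oasl2 in 5 and Ifit1 in 2, and Ifit1 also lost it with the bulb and cerebellar scores in the fit (adjusted p = 0.059).

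By role, the LPS response of exposed vehicle mice had its highest median in the group of Isg15, Usp18, Rtp4 and Xaf1 (0.86 over 4 members, none called). The OAS genes (0.79 over 3, 1 called), the IFI genes (0.79 over 4, none called) and the other antiviral effectors (0.68 over 6, 2 called) followed. Genes of PARP and nuclear body proteins had a median of 0.62 (1 of 4 called), nucleic acid sensors 0.55 (1 of 6), IFIT and IFITM genes 0.53 (2 of 5), inducible GTPases 0.46 (0 of 4) and transcription factors 0.32 (1 of 3). The immunoproteasome genes had the lowest, 0.16 (0 of 3). In CBD mice the role medians lay between -0.04 and 0.30, and in controls between -0.03 and 0.87, the latter in the IFI genes. Over all genes 0.829% were called higher in exposed vehicle mice. The lists are small and were described, not tested, so their counts do not show a difference between roles.

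**Figure D3:**
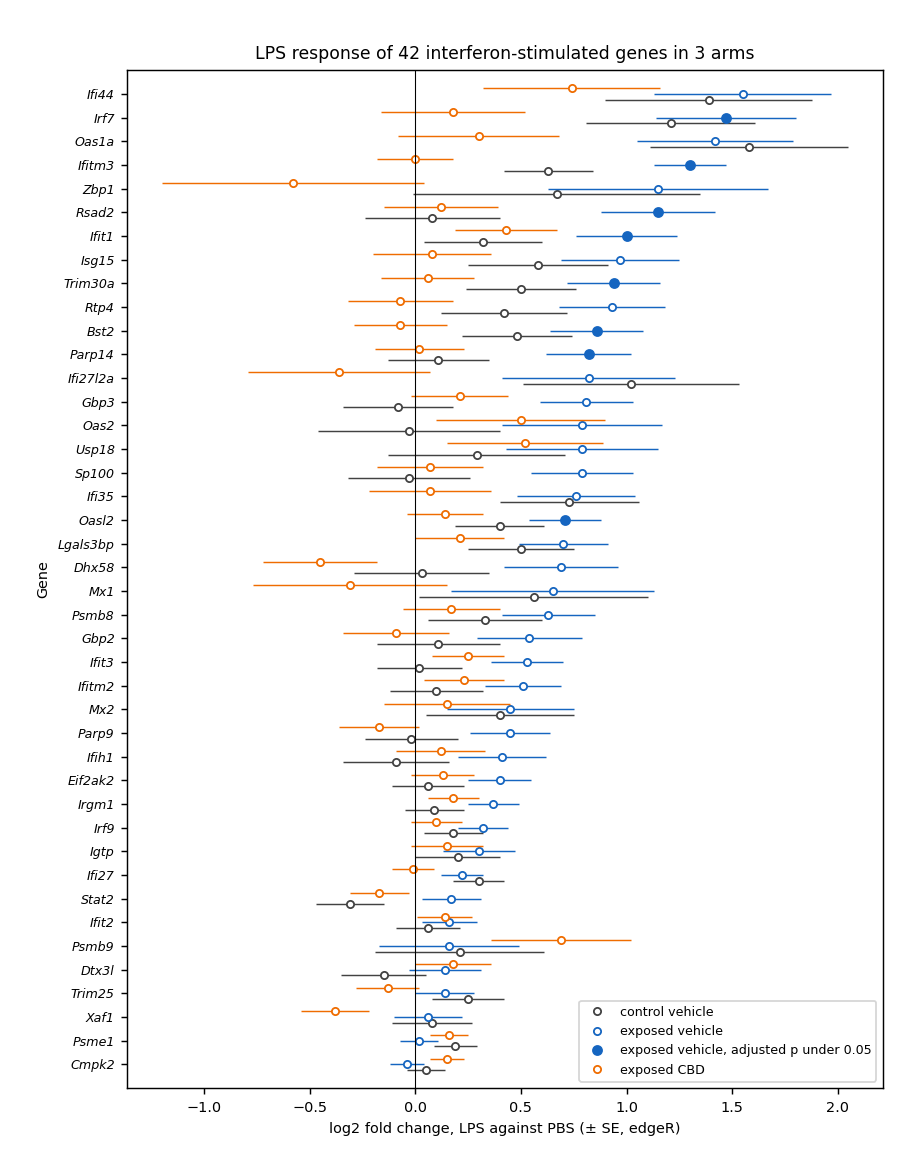
LPS log2 fold change (± SE) of 42 members in control vehicle (grey), exposed vehicle (blue) and exposed CBD mice (orange), ordered by the value in exposed vehicle mice. Filled points passed an adjusted p of 0.05, which happened for 8 members, all in exposed vehicle mice. The orange points lie nearer to 0 than the blue ones for most members, the exceptions being Stat2, Xaf1, Cmpk2, Dtx3l, Psmb9 and Psme1.

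IFIT and IFITM proteins act on virus entry and translation. Ifitm3 (chr7:141009586-141010770, minus strand) encodes a membrane protein that blocks fusion of viruses with endosomes. Ifitm3 was at 6.03, 8.25 and 7.02 CPM in CtrlVeh, 9.72, 11.0 and 12.6 in CtrlVehLPS, 9.09, 7.43, 6.88 and 4.68 in GWVeh and 19.0, 15.6, 14.3 and 20 in GWVehLPS. Ifitm3 levels with CBD were 8.64, 7.12, 11.4 and 6.63 CPM in GWCBD30 and 10.3, 8.16, 8.33 and 6.89 in GWCBD30LPS. All 4 GWVehLPS libraries were above all 18 others, and the LPS and PBS levels of CBD mice overlapped. Ifitm3 had LPS log2 fold changes of 0.63 ± 0.21 (adjusted p = 0.177) in controls, 1.30 ± 0.17 (adjusted p = 6.62e-05) in exposed vehicle mice and 0.00 ± 0.18 (adjusted p = 0.999) with CBD. Ifitm3 remained called in exposed vehicle mice when each library was left out, with a log2 fold change between 1.14 and 1.45.

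Ifit1 (chr19:34640871-34650009, plus strand) encodes a protein that binds viral RNA with foreign 5′ ends. Ifit1 was at 2.68, 2.17 and 3.65 CPM in CtrlVeh, 2.03, 5.18 and 3.63 in CtrlVehLPS, 3.31, 1.76, 2.49 and 2.45 in GWVeh and 4.34, 6.77, 4.78 and 4.16 in GWVehLPS. Ifit1 levels with CBD were 2.27, 1.99, 3.21 and 2.53 CPM in GWCBD30 and 2.89, 4.06, 3.09 and 3.56 in GWCBD30LPS. The GWVehLPS libraries were above those of GWVeh without overlap, and CtrlVehLPS ranged below and above its PBS group. Ifit1 had LPS log2 fold changes of 0.32 ± 0.28 (adjusted p = 0.687) in controls, 1 ± 0.24 (adjusted p = 0.0254) in exposed vehicle mice and 0.43 ± 0.24 (adjusted p = 0.653) with CBD. Ifit1 lost its call in exposed vehicle mice in 4 of 9 leave-outs (adjusted p up to 0.130). Of the other members of this group, Ifit3 had 0.53 ± 0.17 and Ifitm2 0.51 ± 0.18 in exposed vehicle mice, neither of which passed, and Ifit2 had 0.16 ± 0.13. Ifitm2 was called when GWVeh replicate 1, its highest GWVeh library at 5.19 CPM, was left out. Ifit3 can share reads with its near-identical copy Ifit3b, so its counts are uncertain.

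Irf7 (chr7:141262706-141266481, minus strand) encodes the transcription factor that amplifies type I interferon production. Irf7 was at 2.33, 1.24 and 1.28 CPM in CtrlVeh, 1.63, 5.01 and 4.68 in CtrlVehLPS, 2.57, 1.51, 2.11 and 1.92 in GWVeh and 8.88, 4.25, 4.60 and 4.75 in GWVehLPS. Irf7 levels with CBD were 1.73, 1.80, 3.81 and 1.72 CPM in GWCBD30 and 2.67, 3.08, 2.71 and 1.78 in GWCBD30LPS. GWVehLPS replicate 1 was the highest of the 22 libraries, and the lowest GWVehLPS value exceeded every PBS library of the 3 arms. Irf7 had LPS log2 fold changes of 1.21 ± 0.40 (adjusted p = 0.188) in controls, 1.47 ± 0.33 (adjusted p = 0.0215) in exposed vehicle mice and 0.18 ± 0.34 (adjusted p = 0.919) with CBD. The call was lost in 4 of 9 leave-outs (adjusted p up to 0.0989). In CtrlVehLPS replicate 1 lay within the CtrlVeh range and replicates 2 and 3 above it. Exons of Phrf1 overlap Irf7 on the opposite strand, and whether counting used strand is not given in the sources used here.

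Irf9 encodes a DNA-binding subunit of the complex that binds the ISRE. Irf9 was at 13.2, 12.9 and 14.4 CPM in CtrlVeh, 12.1, 16.5 and 17.7 in CtrlVehLPS, 12, 10.3, 14.7 and 14 in GWVeh and 17.7, 14.5, 15.2 and 16.2 in GWVehLPS. Irf9 levels with CBD were 11.2, 14.2, 14.4 and 13.3 CPM in GWCBD30 and 15.9, 13.8, 13.7 and 13.2 in GWCBD30LPS. Its ranges overlapped between LPS and PBS in all 3 arms. Irf9 had LPS log2 fold changes of 0.18 ± 0.14 (adjusted p = 0.633) in controls, 0.32 ± 0.12 (adjusted p = 0.267) in exposed vehicle mice and 0.10 ± 0.12 (adjusted p = 0.866) with CBD. Irf9 exons overlap Rnf31 on the same strand. Stat2, the third member of this role, had -0.31 ± 0.16, 0.17 ± 0.14 and -0.17 ± 0.14 in the same order of arms, none called.

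OAS proteins sense double-stranded RNA and make 2′-5′ oligoadenylates that activate RNase L. Oas1a (chr5:120896256-120907521, minus strand) was low at baseline. Oas1a was at 0.512, 0.184 and 0.466 CPM in CtrlVeh, 1.15, 1.35 and 0.995 in CtrlVehLPS, 0.689, 0.854, 0.497 and 0.569 in GWVeh and 1.64, 1.58, 1.56 and 2.24 in GWVehLPS. Oas1a levels with CBD were 0.379, 0.693, 1.19 and 0.759 CPM in GWCBD30 and 1.14, 1.51, 0.688 and 0.333 in GWCBD30LPS. LPS libraries were above PBS libraries without overlap in control and in exposed vehicle mice, and overlapped them with CBD. Oas1a had LPS log2 fold changes of 1.58 ± 0.47 (adjusted p = 0.134) in controls, 1.42 ± 0.37 (adjusted p = 0.0555) in exposed vehicle mice and 0.30 ± 0.38 (adjusted p = 0.873) with CBD. Averaged over the arms Oas1a rose by 1.10 ± 0.24 (adjusted p = 0.00505), and that call held when each of the 22 libraries was left out. DESeq2 did not call Oas1a in that contrast. Reads can be shared with the near-identical Oas1 copies.

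Oasl2 (chr5:114896936-114912234, plus strand) encodes an OAS-like protein with ubiquitin-like domains. Oasl2 was at 4.21, 4.10 and 6.13 CPM in CtrlVeh, 4.29, 7.37 and 7.78 in CtrlVehLPS, 5.69, 5.78, 6.22 and 5.20 in GWVeh and 9.23, 10.9, 9.24 and 7.95 in GWVehLPS. Oasl2 levels with CBD were 5.39, 5.04, 5.37 and 3.80 CPM in GWCBD30 and 5.23, 5.42, 6.84 and 3.95 in GWCBD30LPS. Every GWVehLPS library exceeded all 18 other libraries. Oasl2 had LPS log2 fold changes of 0.40 ± 0.21 (adjusted p = 0.443) in controls, 0.71 ± 0.17 (adjusted p = 0.0339) in exposed vehicle mice and 0.14 ± 0.18 (adjusted p = 0.881) with CBD. The call in exposed vehicle mice was lost in 7 of 9 leave-outs, with adjusted p up to 0.122. Oas2 had 0.79 ± 0.38 in exposed vehicle mice and was not called. Oas3, not tested, was at or below 0.509 CPM throughout.

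Trim30a (chr7:104409025-104465193, minus strand) encodes a TRIM protein that restrains signalling from Toll-like receptors. Trim30a was at 3.07, 2.44 and 2.79 CPM in CtrlVeh, 3.03, 4.28 and 4.57 in CtrlVehLPS, 2.43, 2.36, 3.40 and 2.54 in GWVeh and 6.61, 4.76, 5.01 and 4.22 in GWVehLPS. Trim30a levels with CBD were 2.06, 3.88, 3.72 and 2.43 CPM in GWCBD30 and 4.00, 3.81, 2.48 and 2.17 in GWCBD30LPS. Its GWVehLPS libraries exceeded all PBS libraries of the 3 arms. Trim30a had LPS log2 fold changes of 0.50 ± 0.26 (adjusted p = 0.433) in controls, 0.94 ± 0.22 (adjusted p = 0.0215) in exposed vehicle mice and 0.06 ± 0.22 (adjusted p = 0.971) with CBD. Trim30a lost its call in exposed vehicle mice in 4 of 9 leave-outs (adjusted p up to 0.122). Eif2ak2 encodes PKR, a kinase that stops translation on double-stranded RNA. Eif2ak2 was at 6.20, 7.28 and 8.23 CPM in CtrlVeh, 5.80, 8.66 and 8.49 in CtrlVehLPS, 5.37, 7.08, 6.30 and 5.60 in GWVeh and 9.06, 8.70, 6.25 and 8.11 in GWVehLPS. Eif2ak2 levels with CBD were 8.30, 5.55, 6.88 and 5.97 CPM in GWCBD30 and 7.35, 7.57, 7.26 and 7.11 in GWCBD30LPS. GWVehLPS replicate 3 fell inside the GWVeh range and the other 3 libraries lay above it. Eif2ak2 had LPS log2 fold changes of 0.06 ± 0.17 (adjusted p = 0.924) in controls, 0.40 ± 0.15 (adjusted p = 0.268) in exposed vehicle mice and 0.13 ± 0.15 (adjusted p = 0.859) with CBD.

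The remaining sensors were not called in any arm. Zbp1, a sensor of Z-form nucleic acid, was near the limit of detection. Zbp1 was at 0.398, 0.277 and 0.272 CPM in CtrlVeh, 0.370, 0.619 and 0.527 in CtrlVehLPS, 0.551, 0.352, 0.580 and 0.350 in GWVeh and 1.71, 0.354, 1.43 and 0.587 in GWVehLPS. Zbp1 levels with CBD were 0.674, 0.185, 0.413 and 0 CPM in GWCBD30 and 0.293, 0.195, 0.191 and 0.167 in GWCBD30LPS. In GWVehLPS replicates 1 and 3 were high and replicates 2 and 4 were within or close to the GWVeh range. Zbp1 had 1.15 ± 0.52 in exposed vehicle mice and -0.58 ± 0.62 with CBD. The RIG-I-like receptor genes Ifih1 (MDA5) and Dhx58 (LGP2) had 0.41 ± 0.21 and 0.69 ± 0.27 in exposed vehicle mice, and Trim25, a ubiquitin ligase for RIG-I, had 0.14 ± 0.14.

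Isg15 encodes the ubiquitin-like protein that is attached to newly made proteins in infected cells. Isg15 was at 1.59, 1.15 and 1.13 CPM in CtrlVeh, 1.96, 2.08 and 1.70 in CtrlVehLPS, 1.79, 0.954, 1.62 and 0.700 in GWVeh and 2.59, 2.68, 2.39 and 2.29 in GWVehLPS. Isg15 levels with CBD were 1.14, 1.34, 1.70 and 1.42 CPM in GWCBD30 and 2.11, 1.76, 0.879 and 1.11 in GWCBD30LPS. LPS and PBS libraries did not overlap in the vehicle arms, and did with CBD. Isg15 had LPS log2 fold changes of 0.58 ± 0.33 (adjusted p = 0.491) in controls, 0.97 ± 0.28 (adjusted p = 0.0901) in exposed vehicle mice and 0.08 ± 0.28 (adjusted p = 0.963) with CBD. Rtp4, which codes for a receptor transporter protein with antiviral activity, came next. Rtp4 was at 2.05, 1.01 and 2.06 CPM in CtrlVeh, 1.59, 3.04 and 2.34 in CtrlVehLPS, 2.02, 1.51, 1.41 and 2.01 in GWVeh and 3.74, 2.56, 3.63 and 3.31 in GWVehLPS. Rtp4 levels with CBD were 1.26, 2.22, 2.80 and 2.38 CPM in GWCBD30 and 1.92, 2.35, 2.18 and 1.78 in GWCBD30LPS. Its GWVehLPS libraries were above all GWVeh and CtrlVeh libraries. Rtp4 had LPS log2 fold changes of 0.42 ± 0.30 (adjusted p = 0.600) in controls, 0.93 ± 0.25 (adjusted p = 0.0672) in exposed vehicle mice and -0.07 ± 0.25 (adjusted p = 0.966) with CBD. Usp18, the protease that removes ISG15, had 0.79 ± 0.36 in exposed vehicle mice, and Xaf1 had 0.06 ± 0.16.

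Among other antiviral effectors, Rsad2 (chr12:26442746-26456452, minus strand) encodes viperin, an enzyme that makes a chain-terminating nucleotide. Rsad2 was at 0.854, 1.89 and 1.98 CPM in CtrlVeh, 1.40, 1.69 and 2.05 in CtrlVehLPS, 1.52, 0.854, 1.45 and 0.918 in GWVeh and 1.96, 3.15, 2.80 and 2.72 in GWVehLPS. Rsad2 levels with CBD were 1.52, 1.39, 2.52 and 1.62 CPM in GWCBD30 and 1.79, 1.86, 1.72 and 2.33 in GWCBD30LPS. GWVeh and GWVehLPS did not overlap, whereas the control groups and the CBD groups did. Rsad2 had LPS log2 fold changes of 0.08 ± 0.32 (adjusted p = 0.943) in controls, 1.15 ± 0.27 (adjusted p = 0.0219) in exposed vehicle mice and 0.12 ± 0.27 (adjusted p = 0.938) with CBD. The Rsad2 call was lost in 5 of 9 leave-outs (adjusted p up to 0.109) and with the bulb and cerebellar scores in the fit (adjusted p = 0.0812). Cmpk2, its neighbour on chromosome 12 and a mitochondrial nucleotide kinase, had -0.04 ± 0.08 in exposed vehicle mice. Cmpk2 levels were 24.1 to 30.6 CPM over all 22 libraries, with no group set apart.

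Bst2 (chr8:71534255-71537456, minus strand) encodes tetherin, which holds budding virus at the cell surface. Bst2 was at 3.87, 3.00 and 4.54 CPM in CtrlVeh, 3.84, 5.18 and 7.08 in CtrlVehLPS, 4.13, 3.31, 4.43 and 3.19 in GWVeh and 8.46, 7.68, 6.02 and 5.07 in GWVehLPS. Bst2 levels with CBD were 3.92, 4.72, 6.51 and 4.91 CPM in GWCBD30 and 5.36, 3.08, 6.53 and 3.83 in GWCBD30LPS. The exposed vehicle groups did not overlap, and the CBD groups overlapped throughout. Bst2 had LPS log2 fold changes of 0.48 ± 0.26 (adjusted p = 0.467) in controls, 0.86 ± 0.22 (adjusted p = 0.0474) in exposed vehicle mice and -0.07 ± 0.22 (adjusted p = 0.953) with CBD. Its call was lost in 7 of 9 leave-outs. Lgals3bp encodes a secreted galectin-binding glycoprotein. Lgals3bp was at 13.9, 19.2 and 25.1 CPM in CtrlVeh, 17.5, 31.8 and 34.7 in CtrlVehLPS, 21.5, 22.7, 23.8 and 20.3 in GWVeh and 39.2, 38.3, 28.1 and 37.8 in GWVehLPS. Lgals3bp levels with CBD were 22.8, 21.9, 29.1 and 16.6 CPM in GWCBD30 and 25.0, 26.3, 30.8 and 22 in GWCBD30LPS. GWVehLPS lay above GWVeh without overlap, and CtrlVehLPS replicate 1 lay within the CtrlVeh range. Lgals3bp had LPS log2 fold changes of 0.50 ± 0.25 (adjusted p = 0.426) in controls, 0.70 ± 0.21 (adjusted p = 0.163) in exposed vehicle mice and 0.21 ± 0.21 (adjusted p = 0.841) with CBD. Of the Mx GTPase genes, which code for proteins that trap viral nucleocapsids, Mx1 had 0.65 ± 0.48 and Mx2 0.45 ± 0.30.

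Ifi44 (chr3:151730922-151749960, minus strand) had the lowest CtrlVeh level per kilobase of the members that passed the filter. Ifi44 was at 0.398, 0.461 and 0.466 CPM in CtrlVeh, 1.22, 1.18 and 1.11 in CtrlVehLPS, 0.413, 0.352, 0.663 and 0.306 in GWVeh and 1.92, 0.945, 1.38 and 0.854 in GWVehLPS. Ifi44 levels with CBD were 0.506, 0.740, 0.688 and 0.354 CPM in GWCBD30 and 1.17, 1.76, 0.306 and 0.611 in GWCBD30LPS. LPS libraries were above PBS libraries in both vehicle arms, and with CBD replicates 1 and 2 were above and replicates 3 and 4 within or below the PBS range. Ifi44 had LPS log2 fold changes of 1.39 ± 0.49 (adjusted p = 0.216) in controls, 1.55 ± 0.42 (adjusted p = 0.0692) in exposed vehicle mice and 0.74 ± 0.42 (adjusted p = 0.659) with CBD. Averaged over the arms it rose by 1.22 ± 0.26 (adjusted p = 0.00386), a call that held in all 22 leave-outs. DESeq2 did not call Ifi44 in that contrast. Ifi35, whose product binds NMI, was also followed. Ifi35 was at 1.48, 0.968 and 1.86 CPM in CtrlVeh, 2.48, 2.64 and 2.05 in CtrlVehLPS, 1.56, 1.76, 1.62 and 1.18 in GWVeh and 3.53, 2.80, 2.71 and 1.17 in GWVehLPS. Ifi35 levels with CBD were 2.15, 1.20, 1.33 and 1.37 CPM in GWCBD30 and 1.11, 1.51, 1.72 and 2.11 in GWCBD30LPS. GWVehLPS replicate 4 was just below the GWVeh range, and the other 3 libraries were above it. Ifi35 had LPS log2 fold changes of 0.73 ± 0.33 (adjusted p = 0.358) in controls, 0.76 ± 0.28 (adjusted p = 0.252) in exposed vehicle mice and 0.07 ± 0.29 (adjusted p = 0.973) with CBD. Ifi27 had 0.22 ± 0.10 and Ifi27l2a 0.82 ± 0.41 in exposed vehicle mice, not called.

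Parp14 (chr16:35832874-35871544, minus strand) encodes a mono-ADP-ribosyltransferase. Parp14 was at 3.13, 2.77 and 4.85 CPM in CtrlVeh, 4.10, 4.16 and 3.39 in CtrlVehLPS, 2.48, 2.76, 3.23 and 4.11 in GWVeh and 6.85, 5.99, 5.01 and 4.32 in GWVehLPS. Parp14 levels with CBD were 4.34, 2.82, 3.90 and 2.53 CPM in GWCBD30 and 3.97, 3.18, 3.51 and 3.06 in GWCBD30LPS. The exposed vehicle groups did not overlap, with GWVehLPS replicate 4 just above GWVeh replicate 4. Parp14 had LPS log2 fold changes of 0.11 ± 0.24 (adjusted p = 0.894) in controls, 0.82 ± 0.20 (adjusted p = 0.0339) in exposed vehicle mice and 0.02 ± 0.21 (adjusted p = 0.989) with CBD. Its call was lost in 5 of 9 leave-outs (adjusted p up to 0.155). Sp100 encodes a component of PML nuclear bodies. Sp100 was at 2.50, 2.03 and 3.26 CPM in CtrlVeh, 1.92, 3.21 and 2.63 in CtrlVehLPS, 1.33, 3.11, 3.23 and 2.45 in GWVeh and 4.65, 4.21, 4.55 and 4.11 in GWVehLPS. Sp100 levels with CBD were 2.65, 3.01, 3.76 and 1.42 CPM in GWCBD30 and 2.89, 3.23, 2.41 and 2.89 in GWCBD30LPS. All GWVehLPS libraries were above all 18 others. Sp100 had LPS log2 fold changes of -0.03 ± 0.29 (adjusted p = 0.981) in controls, 0.79 ± 0.24 (adjusted p = 0.126) in exposed vehicle mice and 0.07 ± 0.25 (adjusted p = 0.967) with CBD. Parp9 and its partner Dtx3l, an E3 ligase, had 0.45 ± 0.19 and 0.14 ± 0.17, and their exons overlap on opposite strands, so reads of one may be counted for the other.

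Guanylate-binding proteins and immunity-related GTPases attack the vacuoles of intracellular pathogens and are classic targets of interferon gamma. No member of this role was called. Gbp3 was at 2.22, 3.04 and 5.51 CPM in CtrlVeh, 2.88, 4.11 and 3.45 in CtrlVehLPS, 2.80, 2.11, 4.27 and 3.11 in GWVeh and 5.73, 5.71, 5.79 and 4.38 in GWVehLPS. Gbp3 levels with CBD were 2.95, 2.40, 3.72 and 3.49 CPM in GWCBD30 and 3.45, 4.35, 3.71 and 3.06 in GWCBD30LPS. In GWVehLPS 3 Gbp3 libraries were nearly equal and replicate 4 was lower, still above GWVeh. Gbp3 had LPS log2 fold changes of -0.08 ± 0.26 (adjusted p = 0.934) in controls, 0.81 ± 0.22 (adjusted p = 0.0706) in exposed vehicle mice and 0.21 ± 0.23 (adjusted p = 0.842) with CBD. Irgm1 was at 8.25, 9.41 and 9.70 CPM in CtrlVeh, 9.58, 9.96 and 9.77 in CtrlVehLPS, 9.78, 8.44, 8.37 and 8.79 in GWVeh and 12.5, 12.4, 10.1 and 10.7 in GWVehLPS. Irgm1 levels with CBD were 8.97, 8.92, 9.82 and 7.34 CPM in GWCBD30 and 10.1, 10.9, 10.6 and 8.11 in GWCBD30LPS. Irgm1 was above the GWVeh range in all GWVehLPS libraries. Irgm1 had LPS log2 fold changes of 0.09 ± 0.14 (adjusted p = 0.828) in controls, 0.37 ± 0.12 (adjusted p = 0.134) in exposed vehicle mice and 0.18 ± 0.12 (adjusted p = 0.701) with CBD. Gbp2 had 0.54 ± 0.25 and Igtp 0.30 ± 0.17 in exposed vehicle mice.

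Immunoproteasome genes, which change how peptides are cut for class I presentation, had no call. Psmb8 was at 1.25, 2.67 and 3.10 CPM in CtrlVeh, 2.55, 3.15 and 3.34 in CtrlVehLPS, 2.75, 2.86, 3.69 and 2.06 in GWVeh and 4.55, 4.96, 4.55 and 3.47 in GWVehLPS. Psmb8 levels with CBD were 2.57, 2.77, 2.48 and 1.82 CPM in GWCBD30 and 3.58, 2.35, 2.48 and 2.39 in GWCBD30LPS. Psmb8, a catalytic subunit, overlapped between GWVeh and GWVehLPS, since GWVeh replicate 3 was above GWVehLPS replicate 4. Psmb8 had LPS log2 fold changes of 0.33 ± 0.27 (adjusted p = 0.663) in controls, 0.63 ± 0.22 (adjusted p = 0.219) in exposed vehicle mice and 0.17 ± 0.23 (adjusted p = 0.881) with CBD. Psme1 was at 21.6, 22.1 and 21.4 CPM in CtrlVeh, 25.8, 24.2 and 24.2 in CtrlVehLPS, 26.2, 25.3, 26.6 and 23.0 in GWVeh and 25.4, 30.8, 23.9 and 22 in GWVehLPS. Psme1 levels with CBD were 23.7, 22.2, 20.7 and 23.5 CPM in GWCBD30 and 23.8, 22.9, 26.9 and 27.5 in GWCBD30LPS. Psme1, an activator subunit, was higher in every CtrlVehLPS than in every CtrlVeh library, and LPS and PBS libraries overlapped in both exposed arms. Psme1 had LPS log2 fold changes of 0.19 ± 0.10 (adjusted p = 0.467) in controls, 0.02 ± 0.09 (adjusted p = 0.974) in exposed vehicle mice and 0.16 ± 0.09 (adjusted p = 0.635) with CBD. Psmb9 had 0.16 ± 0.33 in exposed vehicle mice and 0.69 ± 0.33 with CBD.

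**Figure D4:**
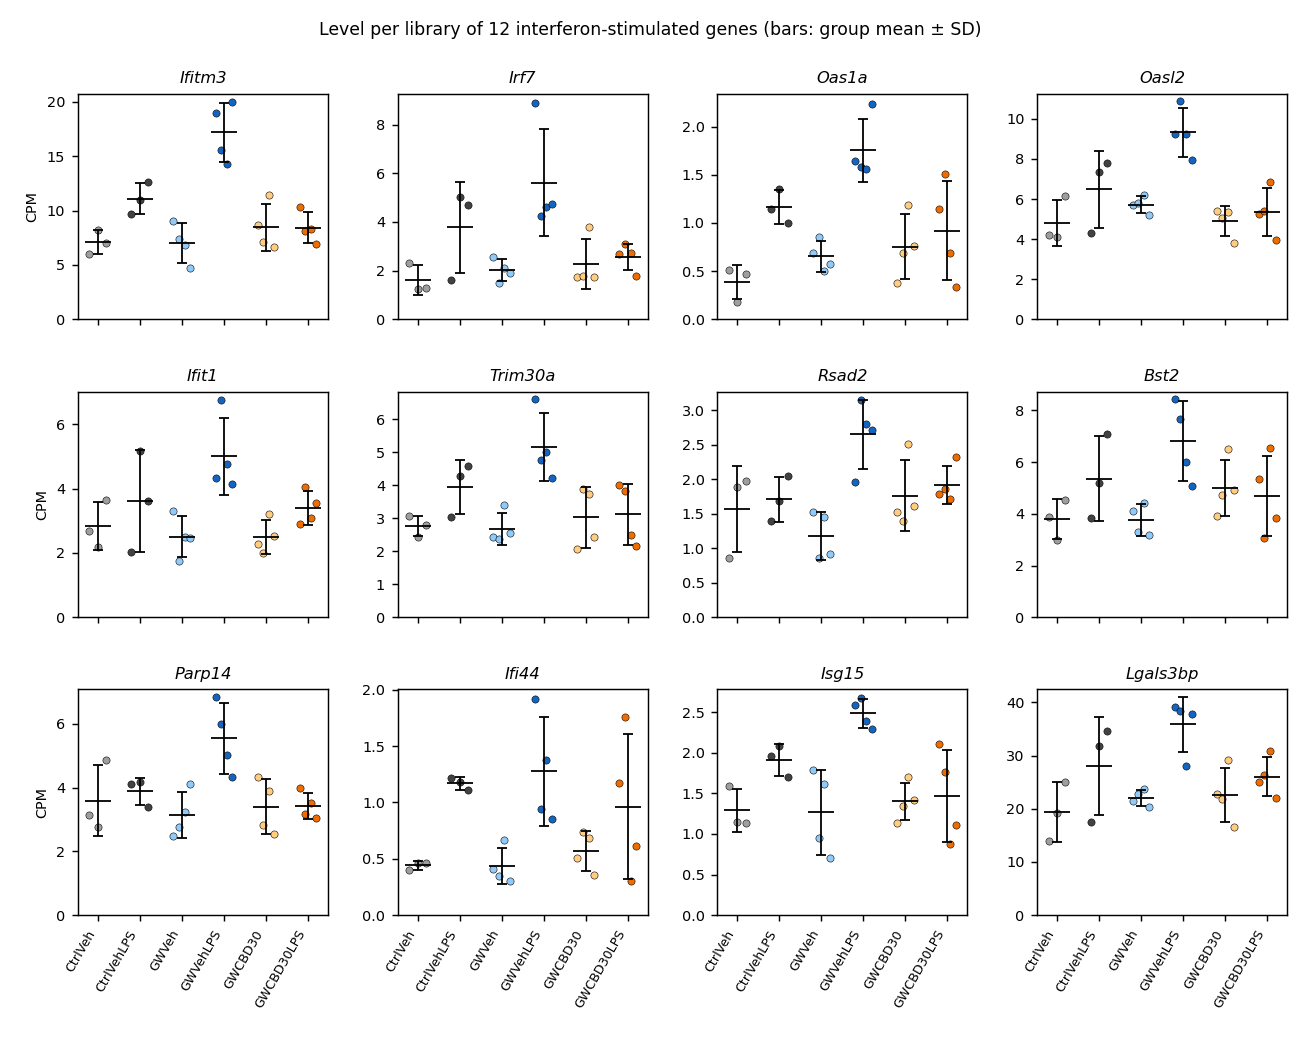
CPM of 12 members in each of the 22 libraries (points) by group, with the group mean ± SD (bars) on axes that start at 0. For Ifitm3, Oasl2 and Isg15 the 4 GWVehLPS points lie above every other point, and for Irf7 and Lgals3bp CtrlVehLPS replicate 1 is the low dark grey point of its group.

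CBD lowered 2 members in exposed mice under LPS. Ifitm3 fell by 1.02 ± 0.17 (adjusted p = 0.00233), to 0.493 of its vehicle level, and Oasl2 fell by 0.79 ± 0.17 (adjusted p = 0.0352), while 0.225% of all genes were called lower. No member rose. The median of the 42 was -0.49, against 0.00 for all genes, and 40 of 42 were negative. In 15 of 42 every GWCBD30LPS library lay below every GWVehLPS library, against 2.50% of all genes. The 15 were Dhx58, Gbp3, Ifit1, Ifitm2, Ifitm3, Irf7, Isg15, Oas1a, Oasl2, Parp14, Parp9, Rtp4, Sp100, Trim30a and Zbp1. Zbp1 had the largest difference, -2.22 ± 0.56 (adjusted p = 0.102), and was not called. Ifitm3 was called without each of the libraries in turn. Oasl2 was lost in 6 of 9 leave-outs: the count was 1 without GWVehLPS replicate 1 or 3, or without GWCBD30LPS replicate 1, 2 or 4, and without GWVehLPS replicate 2 Zbp1 was called in its place. Without CtrlVehLPS replicate 1 the count was 3, with Irf7 added. Over all genes 22 to 67 were called in these leave-outs, in either direction, against 48 with all libraries.

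Both this contrast and the LPS contrast of exposed vehicle mice use the GWVehLPS libraries, so their values are not independent. In 12 of 42 members, against 1.15% of all genes, GWVehLPS lay above all GWVeh and all GWCBD30LPS libraries: Gbp3, Ifit1, Ifitm3, Irf7, Isg15, Oas1a, Oasl2, Parp14, Parp9, Rtp4, Sp100 and Trim30a. The difference between the LPS responses of exposed CBD and exposed vehicle mice, tested as an interaction, was called for 1 member, Ifitm3, at -1.29 ± 0.25 (adjusted p = 0.0402), against 0.0449% of all genes called lower. The next were Bst2 at -0.93 ± 0.31 (adjusted p = 0.707) and Dhx58 at -1.14 ± 0.38 (adjusted p = 0.707). The median was -0.53, with 4 of 42 positive, and 14 had an unadjusted p under 0.05, against 5.69% of all genes. Without GWCBD30 replicate 3 that number was 8, against 5.58% of all genes, and 6 of 42 were positive. Ifitm3 lost this call in 11 of 17 leave-outs, with adjusted p from 0.0085 to 0.139 over the 17. These were the leave-outs of GWVeh replicates 2, 3 and 4, GWVehLPS replicates 1 and 4, GWCBD30 replicates 1, 2 and 3, and GWCBD30LPS replicates 2, 3 and 4. The call was also lost when only the 4 groups of this contrast were fitted (adjusted p = 0.0549).

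Without LPS, CBD gave no call among the members, against 0% of all genes called. The 1 member with an unadjusted p under 0.05 was Rsad2, fewer than the 6.43% of all genes would give, and DESeq2 called none. Rsad2 had 0.56 ± 0.28 (adjusted p = 0.752), Cmpk2 -0.16 ± 0.08 (adjusted p = 0.752) and Dhx58 0.54 ± 0.27 (adjusted p = 0.752). The median was 0.05, with 26 of 42 positive, and without GWCBD30 replicate 3 18 of 42 were positive.

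Without LPS, exposed vehicle mice differed from control mice in no called member, against 0% of all genes called. Psme1 at 0.22 ± 0.10 (adjusted p = 0.529) and Ifi27 at 0.23 ± 0.11 (adjusted p = 0.566) had an unadjusted p under 0.05, against 8.80% of all genes, and Dtx3l followed at -0.30 ± 0.19 (adjusted p = 0.655). The median was -0.03, with 14 of 42 positive, and DESeq2 called none. With the bulb and cerebellar scores in the fit it was 0.01, with 22 positive.

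Under LPS, exposed vehicle mice differed from control mice in no member after adjustment, against 0.00499% of all genes called. The median was 0.36, with 37 of 42 positive. There were 9 members with an unadjusted p under 0.05, against 7.73% of all genes, and DESeq2 called none. Ifitm3 had 0.64 ± 0.18 (adjusted p = 0.410), Sp100 0.78 ± 0.27 (adjusted p = 0.461) and Oasl2 0.55 ± 0.19 (adjusted p = 0.461). In 11 of 42 members every GWVehLPS library lay above every CtrlVehLPS library, against 2.84% of all genes. Without CtrlVehLPS replicate 1 the median was 0.18 and 34 of 42 were positive. In that fit 2 members had an unadjusted p under 0.05, against 4.42% of all genes, where 9 had one with that library. With the bulb and cerebellar scores in the fit the median was 0.16, 28 of 42 were positive and none had an unadjusted p under 0.05, against 4.02% of all genes.

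The interaction of exposure and LPS, which asks whether the response of exposed vehicle mice differed from that of controls, was called for no member, against 0% of all genes. Gbp3 had 0.89 ± 0.34 (adjusted p = 0.476), Rsad2 1.07 ± 0.41 (adjusted p = 0.483) and Ifitm3 0.66 ± 0.27 (adjusted p = 0.503). There were 6 of 42 with an unadjusted p under 0.05, against 8.43% of all genes, and DESeq2 called none. The median was 0.33, with 34 of 42 positive. Without CtrlVehLPS replicate 1 the median was 0.21, 31 of 42 were positive and 3 had an unadjusted p under 0.05, against 6.57% of all genes. With the bulb and cerebellar scores in the fit the median was 0.04, 25 of 42 were positive and 1 had such a p, against 5.36% of all genes. The difference between 8 calls in exposed vehicle mice and 0 in controls is therefore not a called difference for any member.

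The rest of the pathway is given from lists of genes by role. Of 21 interferon genes listed, none passed the filter: Ifnb1 had 0 counts in all 22 libraries, Ifng 2 and Ifnk, the highest, 7 in total. Such counts are under the limit of detection in every library, so interferon transcripts were not detectable at this depth. Receptor genes were present, with Ifnar1 at 38.9 to 50.6 CPM and Ifnar2 at 9.54 to 12.6 CPM over the 22 libraries. None of 6 receptor genes was called in the averaged LPS contrast, in which Ifngr1 had the smallest p (0.16 ± 0.06, adjusted p = 0.102). Of 10 JAK, STAT and IRF genes 1 rose, against 2.49% of all genes, Stat3, by 0.16 ± 0.05 (adjusted p = 0.0390).

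Upstream of interferon, 3 of 16 sensing genes rose in the averaged contrast, in which 2.49% of all genes were called higher. They were Ticam1, the TRIF adaptor, by 0.47 ± 0.09 (adjusted p = 0.000996), Sting1, the adaptor for cytosolic DNA, by 0.63 ± 0.13 (adjusted p = 0.00449), and Cd14, the LPS co-receptor, by 0.53 ± 0.14 (adjusted p = 0.0203). Of 8 negative regulators 1 rose, against that share, the phosphatase Ptpn6, by 0.46 ± 0.12 (adjusted p = 0.0207). Of 57 further interferon-stimulated genes tested, which are not members, 5 rose in it, to be read against the same 2.49%, and none fell: B2m, H2-K1 and Tapbp of class I antigen presentation, the cytidine deaminase Apobec3, and Shisa5. B2m rose by 0.26 ± 0.05 in the averaged contrast, and by 0.47 ± 0.08 (adjusted p = 0.000447) in exposed vehicle mice. It fell with CBD under LPS by 0.36 ± 0.08 (adjusted p = 0.0284). Over those 57 the median LPS response was 0.10 in controls, 0.35 in exposed vehicle mice and 0.10 with CBD.

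Markers of cell types that express these genes moved in the same samples. Microglial markers summed to 220 to 229 CPM in CtrlVeh, 337 to 346 in CtrlVehLPS, 217 to 238 in GWVeh, 294 to 378 in GWVehLPS, 221 to 249 in GWCBD30 and 263 to 296 in GWCBD30LPS. After LPS 7 of 12 rose in controls (0.414% of all genes), 9 in exposed vehicle mice (0.829%) and 0 with CBD (0.00499%). In the CBD arm 1 of all 20026 genes was called higher, and the microglial sums of GWCBD30LPS lay above those of GWCBD30. With CBD under LPS 2 of 12 (Tmem119 and Olfml3) fell, against 0.225% of all genes. In controls no member was called, though 35 of 42 were positive. A call in 1 list and not in another is not a difference between the lists. Endothelial markers summed to 150 to 177 CPM over the PBS libraries, 173 to 190 in CtrlVehLPS, 202 to 222 in GWVehLPS and 161 to 173 in GWCBD30LPS. Of 12 endothelial markers 4 (Pecam1, Ly6c1, Ly6a and Slco1a4) rose in exposed vehicle mice, against 0.829% of all genes. Ly6c1 ran from 10.1 to 31.3 CPM and Ly6a from 6.73 to 31.3 over all libraries, so the endothelial sums follow these genes in part. Whether their levels mark the number of endothelial cells was not tested. With CBD under LPS 4 (Cldn5, Pecam1, Ly6c1 and Ly6a) fell, against 0.225% of all genes. Markers of monocytes and neutrophils summed to 2.39 to 21.3 CPM over all libraries, and of the 6 of 12 that passed the filter none was called in the LPS contrasts. Border-associated macrophage markers summed to 27.6 to 33.6 CPM in GWVehLPS, above the 19.9 to 23.2 of GWVeh and the 19.4 to 24.2 of GWCBD30LPS. Their sums were 25.7 to 30.8 CPM in CtrlVehLPS, 21 to 22 in CtrlVeh and 22.6 to 27.6 in GWCBD30. Of 8 such markers 1 (Stab1) rose after LPS in exposed vehicle mice, against 0.829% of all genes. None fell with CBD under LPS, against 0.225% of all genes. Astrocyte markers summed to 4540 to 4710 CPM in CtrlVeh and 4770 to 4980 in CtrlVehLPS. Their sums were 4360 to 4770 CPM in GWVeh, 4800 to 5490 in GWVehLPS, 4190 to 4440 in GWCBD30 and 4780 to 5110 in GWCBD30LPS. In each arm the LPS sums lay above the PBS sums without overlap. Of 9 astrocyte markers 1 (Slc1a3) rose in exposed vehicle mice, against 0.829% of all genes. The part of cell numbers in the members' differences was not tested.

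**Figure D5:**
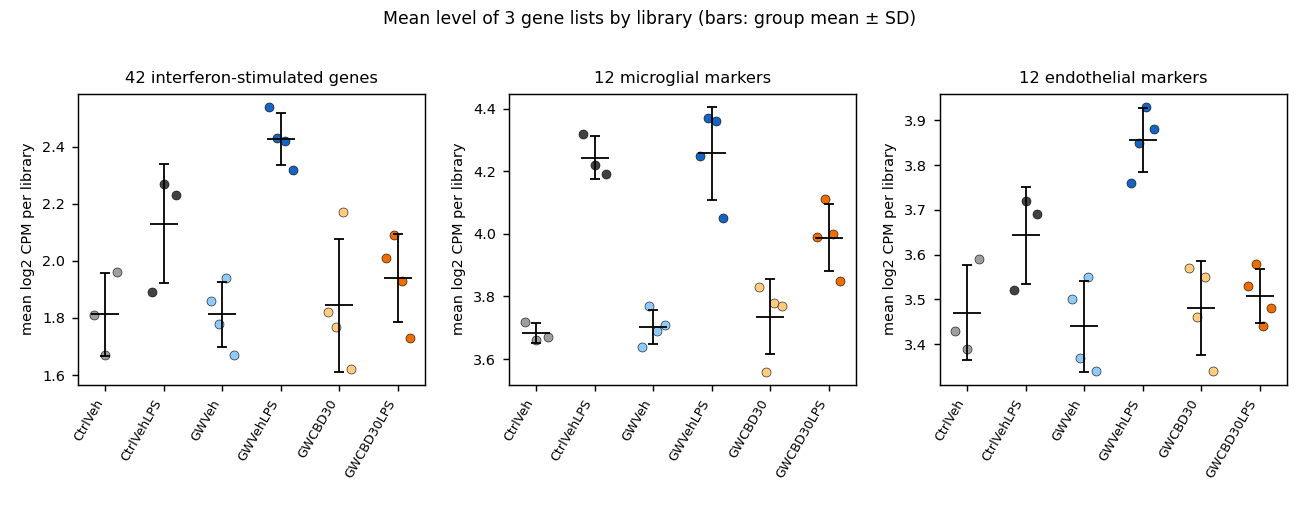
Mean log2 CPM per library of the 42 members, 12 microglial markers and 12 endothelial markers (points) by group, with the group mean ± SD (bars). The members' mean was 2.32 to 2.54 in GWVehLPS and 1.73 to 2.09 in GWCBD30LPS, while the microglial mean was 4.19 to 4.32 in CtrlVehLPS, inside the 4.05 to 4.37 of GWVehLPS.

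Promoter letters and the LPS response in exposed vehicle mice were set side by side as a description. The 17 tested members with an ISRE match had a median log2 fold change of 0.54, from 0.02 to 1.42, and 5 of them were called (Bst2, Ifit1, Ifitm3, Rsad2 and Trim30a). The 14 without a match had a median of 0.47, from -0.04 to 1.55, and 2 were called (Irf7 and Oasl2). Of the 11 members with no window, 1 was called (Parp14) and the median was 0.79. Over all genes 0.829% were called higher in this contrast, and the counts were not tested against each other. With CBD under LPS the medians were -0.53 with a match and -0.34 without.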

How the data were processed

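Stranded poly(A) RNA-seq libraries of whole brain (RNA integrity number at least 8.5, paired reads of 150 bases, per the labels' protocols) were deposited by the authors as raw read counts per Ensembl gene. The build is GRCm38 (mm10) per the submitters' processing notes; for the aligner, the counter, its strand setting and the annotation, nothing was given in the sources used here. Gene positions and exon lengths came from GENCODE M21.

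Genes were filtered by edgeR's filterByExpr, scaled by TMM and tested in 1 quasi-likelihood fit of the 6 groups (edgeR 4.0.16, limma 3.58.1, R 4.3.3, 16 residual degrees of freedom), with Benjamini-Hochberg adjustment over 20026 genes in each of 10 contrasts. The code was tested on simulated data. The depth of the libraries sets a limit of detection of 3 counts, which covers counting error only.

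Members and lists were chosen with earlier results of these data known. Per-library values are given for members past an adjusted p of 0.05 in any LPS contrast and for the 2 of each role with the smallest p in the averaged contrast; elsewhere the 3 with the smallest p are named, of which Zbp1 (CBD under LPS) was given per-library values after its values were seen. Other members are given by value. Alternatives were RLE scaling, no filter, a strict filter (1 CPM in 3 libraries), DESeq2 1.42.0, only the contrast's groups, the replicate number as a block, olfactory bulb and cerebellar scores as covariates, and leaving out each library. Removing CtrlVehLPS replicate 1 from all 10 contrasts was chosen after seeing the data.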

Additional observations from a re-analysis of the deposited data

Results flagged for a closer look

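Single libraries stood apart within their group of 4 in 6 of 84 member and group combinations looked at, by a gap to the nearest library above 0.829 of the group's range, and chance gives about 1 in 20. Oas1a was highest in GWVehLPS replicate 4, at 2.24 CPM. Irf7 was highest in GWVehLPS replicate 1, at 8.88 CPM, and in GWCBD30 replicate 3, at 3.81 CPM. Lgals3bp was lowest in GWVehLPS replicate 3, at 28.1 CPM, and Gbp3 was lowest in GWVehLPS replicate 4, at 4.38 CPM. Psmb8 was highest in GWCBD30LPS replicate 1, at 3.58 CPM. In the same data the LPS response of Ifitm3 differed between exposed CBD and exposed vehicle mice by -1.29 (log2) in the interaction test of edgeR.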

How the results depend on the processing

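The directions of the members' medians held in the LPS contrasts and in CBD under LPS, while the counts of calls moved. Without a filter on low counts the calls were 2 for LPS in controls, 14 in exposed vehicle mice, 1 for exposure under LPS, 5 for CBD under LPS and 2 for the CBD by LPS interaction. Over all genes the calls in these contrasts rose too, from 99, 188, 1, 48 and 9 to 357, 359, 118, 138 and 37. With 2 covariates, the olfactory bulb and the cerebellar score, LPS in controls had 1 call and a median of 0.39, exposure under LPS a median of 0.16 and the exposure by LPS interaction a median of 0.04. For LPS in controls that fit called 25 of all genes. The CBD by LPS interaction had 0 calls when only its own groups were fitted, against 10 calls over all genes. DESeq2 called 12 in exposed vehicle mice and 8 in the averaged contrast, against 295 and 1002 over all genes. Ifi44 and Oas1a, called by edgeR in the averaged contrast, were not among those 8, while Irgm1, Isg15 and Lgals3bp were. Leaving out 1 library at a time, calls ranged from 0 to 1 for LPS in controls, 1 to 12 in exposed vehicle mice, 4 to 10 averaged, 1 to 3 for CBD under LPS and 0 to 1 for the CBD by LPS interaction, and the median for exposure under LPS from 0.18 to 0.41. Over all genes calls in these 5 contrasts ranged from 20 to 132, 125 to 266, 449 to 899, 22 to 67 and 2 to 17, in that order. The causes were not tested.

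Of 102 named values 16 changed sign under some alternative, none of them called. With the covariates, in controls, Rsad2 was -0.04, Sp100 0.15, Gbp3 0.14 and Psme1 -0.01, and Psme1 was -0.02 in exposed vehicle mice. Over leave-outs in controls Eif2ak2 ranged from -0.04 to 0.24, Ifit1 from -0.04 to 0.63, Rsad2 from -0.19 to 0.28, Parp14 from -0.05 to 0.41, Sp100 from -0.22 to 0.18 and Gbp3 from -0.32 to 0.38. Psme1 ranged from -0.09 to 0.08 in exposed vehicle mice. With CBD Oas1a ranged from -0.01 to 0.61, Trim30a from -0.10 to 0.20, Isg15 from -0.17 to 0.27, Rtp4 from -0.26 to 0.08, Bst2 from -0.27 to 0.08, Ifi35 from -0.08 to 0.29, Parp14 from -0.10 to 0.16 and Sp100 from -0.14 to 0.26.

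Replicate numbers did not pair the samples: deviations of 11 same-numbered PBS and LPS pairs correlated between -0.06 and 0.09. With the replicate block 10 members were called in exposed vehicle mice, 9 in the averaged contrast, 2 for CBD under LPS, 1 for the CBD by LPS interaction and 0 in controls. Over all genes the block gave 223, 765, 57, 15 and 124 calls in the same order. Members below about 1 CPM, such as Zbp1 and Ifi44, rest on few counts.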
